A study of Mus musculus with 36 samples.

Results

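Reabsorption of sodium and water along the nephron was examined through 10 genes, namely Umod, Slc12a1, Slc12a3, Scnn1a, Scnn1b, Scnn1g, Aqp1, Aqp2, Aqp3 and Avpr2. They were chosen by name, with earlier results of these data known. Every probe set that the array annotation assigns to one of these symbols alone was taken. This gave 14 probe sets of 45141 on the array and 10 of 17097 genes with such a symbol. Umod has 2 probe sets, Slc12a3 2, Aqp3 3 and each of the others 1, and the brightest probe set on average stands for its gene unless stated otherwise.

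Total kidney RNA of single mice was hybridized to Affymetrix HT MG-430 PM arrays (36 in all). They were male C57BL/6 mice of 10 to 12 weeks and 20 to 25 g. The groups were 3-day fasting (n = 4) with mice on SDS chow as its control (n = 5), 2-week 30%DR (n = 5), in which mice received 30% less SDS chow, with its own SDS mice (n = 3), and the 3-day protein-free (n = 5), CHO-free (carbohydrate-free, n = 5) and fat-free (n = 4) diets with mice on a purified diet called Control (n = 5). All mice had 7 days on SDS chow beforehand and drank acidified water, all groups other than fasting and 30%DR ate ad libitum, and no gene was altered in any of them. The 30%DR ration was given as a daily meal, so restriction and meal timing cannot be told apart, and the CHO-free diet was rich in casein, so missing carbohydrate and added protein cannot be told apart either. In the protein-free diet carbohydrate replaced the protein. The paper also reports weight loss on it and a lower energy intake that was not significantly different. Missing protein cannot be told apart from these. The fat-free diet held more protein than the Control diet, which cannot be told apart from missing fat. The fasting experiment was hybridized and normalized apart from the other 27 arrays. Signals are therefore compared within each experiment, and never between probe sets of different genes, which differ in brightness for a given amount of RNA.

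The proximal tubule and the thin descending limb reabsorb water through AQP1. In the thick ascending limb the cotransporter NKCC2 (Slc12a1) takes up sodium without water, and the same cells secrete uromodulin (Umod), the most abundant protein of normal urine. The distal convoluted tubule takes up sodium through NCC (Slc12a3), the target of thiazides, and principal cells of the collecting duct do so through the epithelial sodium channel ENaC, built from the products of Scnn1a, Scnn1b and Scnn1g and raised by aldosterone. Vasopressin binds the V2 receptor (Avpr2) on principal cells and, through cAMP, moves AQP2 to the apical membrane and raises Aqp2 transcription, and AQP3 lets the water leave on the basolateral side.

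The results turn on Aqp2 and Avpr2, so the 250 bases before their start sites are shown here (RefSeq, GRCm38.p6, both on the plus strand, chr15:99578806-99579055 and chrX:73891852-73892101), with matches to 3 searched motifs in capitals. In Aqp2 these are CGTCA, which reads as the first motif on the opposite strand, 211 bases before the start, AGAACA at 179 and CACGTG at 58, and in Avpr2 TGTTCT at 59 and 50.
Aqp2: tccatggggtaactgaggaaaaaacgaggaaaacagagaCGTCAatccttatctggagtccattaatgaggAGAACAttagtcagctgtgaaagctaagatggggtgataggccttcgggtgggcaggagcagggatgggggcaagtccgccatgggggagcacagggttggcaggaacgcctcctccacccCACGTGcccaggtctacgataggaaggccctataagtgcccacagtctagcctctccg
Avpr2: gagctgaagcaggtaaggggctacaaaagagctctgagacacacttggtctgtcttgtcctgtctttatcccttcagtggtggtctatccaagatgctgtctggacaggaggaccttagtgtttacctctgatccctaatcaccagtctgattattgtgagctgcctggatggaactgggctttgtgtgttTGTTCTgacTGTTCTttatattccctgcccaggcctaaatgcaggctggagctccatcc
The search covered both strands for TGACG, a half-site of the cAMP response element, CACGTG, an E-box, and AGAACA, a half-site of steroid receptor elements. The TonE motif of the osmotic stress factor NFAT5 was searched as well, and no match overlapped another. TGACG was held by 17.8% of 32851 promoters of this length, CACGTG by 6.02%, AGAACA by 16.1% and TonE by 4.31%. Of the 9 genes with a promoter in the table, all but Scnn1a, Aqp2 had the first of these and the E-box, Aqp2 and Avpr2 had AGAACA, and 0 had TonE. These are letter matches in short windows and describe no binding. The other genes lie on chromosomes 7 (Umod, and Scnn1b beside Scnn1g), 2 (Slc12a1), 8 (Slc12a3), 6 (Scnn1a and Aqp1) and 4 (Aqp3), and Avpr2 overlaps Arhgap4, from which its probe set was not told apart here.

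Every one of the 10 genes gave a signal above the nonspecific control probe sets, whose highest value was 4.98 in the fasting experiment and 4.95 in the other, except for 1 of 5 Control mice for Scnn1b (4.91) and 1 of 5 SDS mice of the fasting experiment for the same gene (4.93). The second probe set of Slc12a3 lay between 2.88 and 3.66 and was at background. Signals were compared by limma, and a probe set was taken as differentially expressed (DEPS) when it differed at least 1.5-fold with a false discovery rate (FDR) under 5%, adjusted over the whole array. In whole kidney, fewer cells of a type and less RNA per cell cannot be told apart. The mean signal of 7 proximal tubule markers was 11.0 to 11.2 in the 4 fasted mice and 10.9 to 11.3 in their SDS controls, and group means of the others lay between 11.16 and 11.26, while Cyp11b1 and Cyp11b2, which define the adrenal cortex, were at background (means 2.94 and 2.66). RNA integrity was gauged by how far the 3' control probe set of Gapdh exceeded its 5' one (called the Gapdh difference, log2), which ranged from 0.60 to 1.23 in the fasting experiment and from 0.65 to 2.45 in the other.

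**Figure D1:**
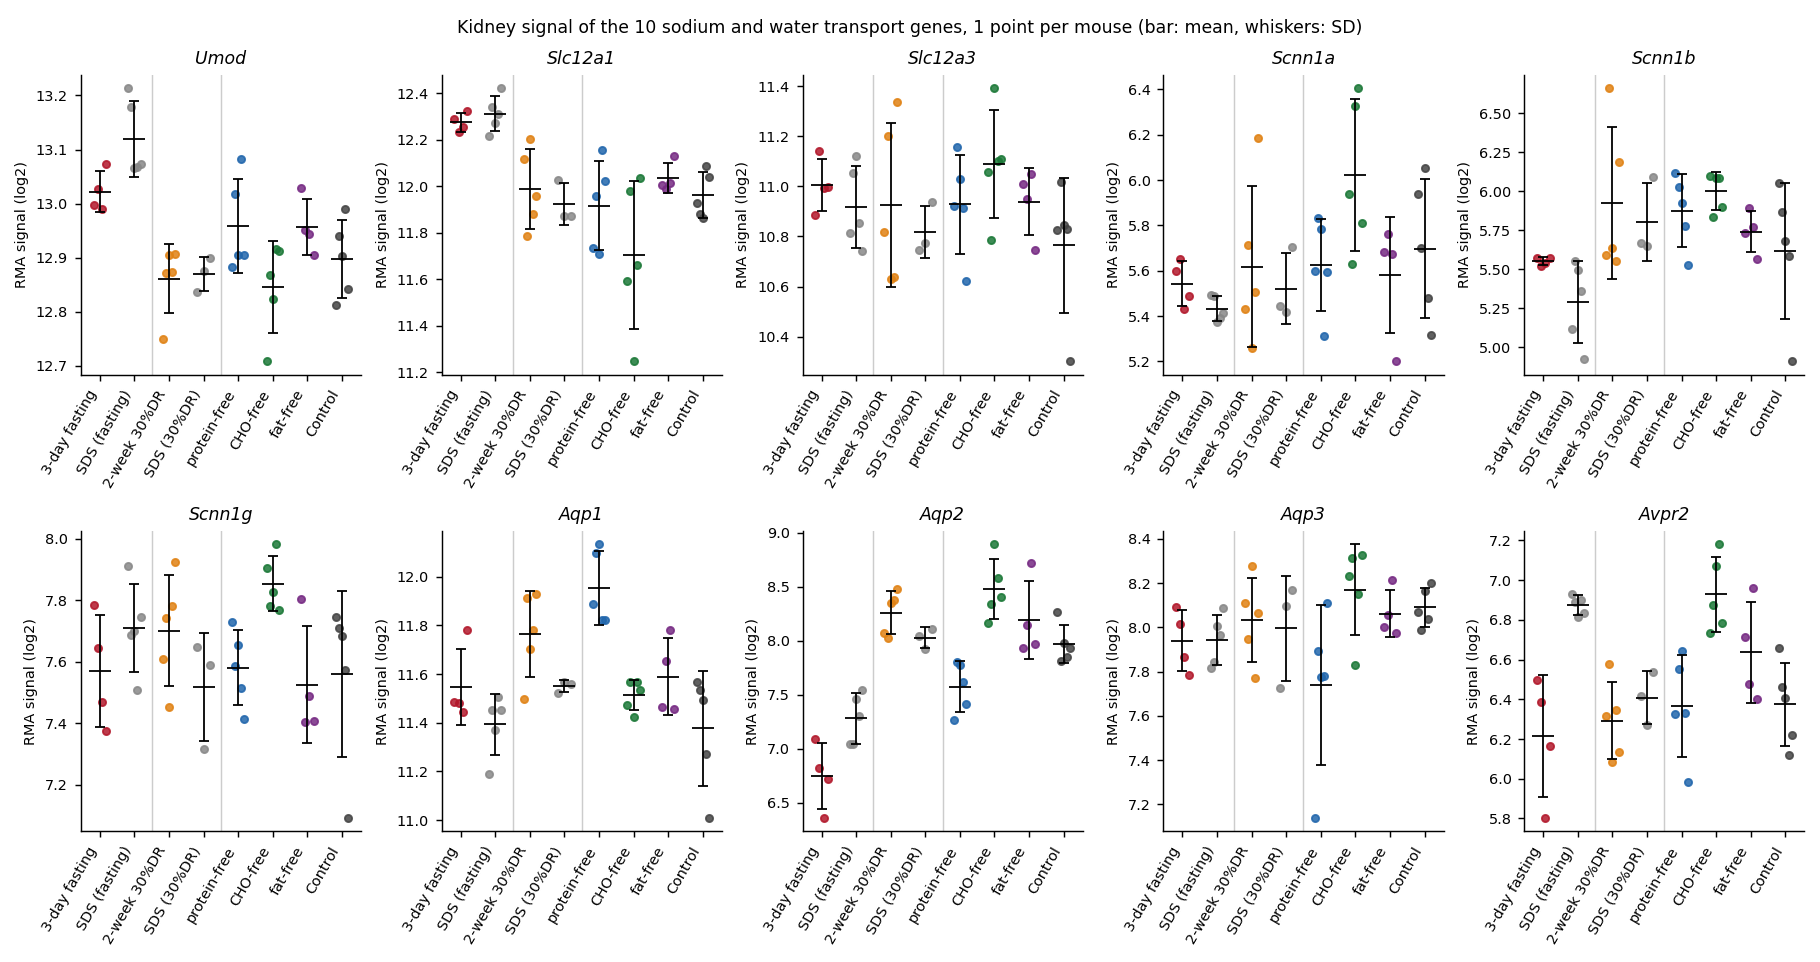
RMA signal (log2) of each of the 10 genes in each mouse (1 point per mouse) by group, with the mean as a bar and the SD as whiskers; grey lines part the fasting experiment, the 30%DR experiment and the 3-day diets, and each panel has its own scale. Avpr2 lay between 5.80 and 6.50 in the 4 fasted mice, below all 5 SDS mice, and Aqp2 lay between 7.26 and 7.81 in protein-free and between 8.16 and 8.89 in CHO-free mice.

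Fasted kidneys had a lower signal for the vasopressin V2 receptor gene, from a probe set not told apart from the overlapping Arhgap4. Both salt cotransporters and uromodulin differed by less than 1.5-fold within their intervals. Avpr2 had signals of 6.50, 6.39, 5.80 and 6.17 in the fasted mice, against 6.93, 6.89, 6.81, 6.90 and 6.83 in SDS mice. All 4 fasted mice lay below all 5 controls, and the fasted mice were spread more widely than the controls. The log2 fold change was -0.66 (SE 0.12, 95% interval -0.92 to -0.40, adjusted p = 0.00217), or 1.58-fold lower. It was the single DEPS among the 14 probe sets, where 5.31% of all probe sets were DEPS after fasting (2.63% higher and 2.68% lower), and the single one without overlap between groups, where 17.2% of all were. At an unadjusted p under 0.05 there were 3 of 14 (30.2% of all). Without fasted mouse 3, the lowest, the change was -0.52 (adjusted p = 0.00136) and under 1.5-fold.

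Aqp2, the water channel that vasopressin regulates, had 7.09, 6.82, 6.36 and 6.72 in the fasted mice, against 7.04, 7.04, 7.46, 7.31 and 7.55 in SDS mice. Fasted mouse 1 overlapped the controls and the other 3 lay below them. The log2 fold change of -0.53 (SE 0.15, 95% interval -0.86 to -0.21, adjusted p = 0.0253) was 1.45-fold and so no DEPS, although it passed the FDR, as did 2 of the 14 probe sets, both lower, and 19.6% of all (10.1% higher and 9.54% lower). Without fasted mouse 3 or 4 or SDS mouse 3 or 5 it missed the FDR (adjusted p from 0.0593 to 0.0667), and without fasted mouse 1 (-0.65) or SDS mouse 1 or 2 (-0.59 each) it became a DEPS. Adjusted p reached 0.0524 with the adipocyte markers as a covariate, whose mean ran from 5.83 to 8.10 in fasted and from 6.35 to 6.99 in SDS mice. The mean of 9 principal cell markers, which include Aqp2 and Avpr2, was 7.36 ± 0.29 (SD, n = 4) in fasted and 7.45 ± 0.09 (SD, n = 5) in SDS mice, and of the 4 of them that are not among the 10 genes 0 passed the test. The Gapdh difference was 0.93 ± 0.09 (SD, n = 4) after fasting and 0.88 ± 0.23 (SD, n = 5) on SDS, and with it as a covariate Avpr2 had -0.66 (adjusted p = 0.00409).

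Umod and Slc12a1 of the thick ascending limb differed little between fasted and SDS mice. Slc12a1 had 12.29, 12.23, 12.26 and 12.32 in fasted mice, against 12.22, 12.34, 12.27, 12.31 and 12.42 in SDS mice, which differ by -0.04 on the log2 scale (SE 0.06, adjusted p = 0.741). Its 95% interval of -0.16 to 0.09 holds no change of 1.5-fold. Umod had 13.00, 13.03, 12.99 and 13.07, against 13.21, 13.18, 13.07, 13.07 and 13.07 in SDS mice (-0.10, SE 0.06, adjusted p = 0.289). Slc12a3 had a log2 fold change of 0.09 (SE 0.09), and the intervals of Umod (-0.22 to 0.03) and Slc12a3 (-0.11 to 0.28) likewise lie within 1.5-fold.

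Of the ENaC subunits, Scnn1b had 5.57, 5.52, 5.54 and 5.57 in fasted mice, against 5.12, 5.55, 5.50, 5.36 and 4.93 in SDS mice. The fasted mice lay close together at the upper edge of the controls, 0.26 above them on average (log2, SE 0.12, adjusted p = 0.152). Scnn1a had 0.11 (SE 0.06) and Scnn1g -0.14 (SE 0.10), neither of which passed the test, and Aqp1 (0.15, SE 0.09) and Aqp3 (-0.00, SE 0.08) did not either.

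**Figure D2:**
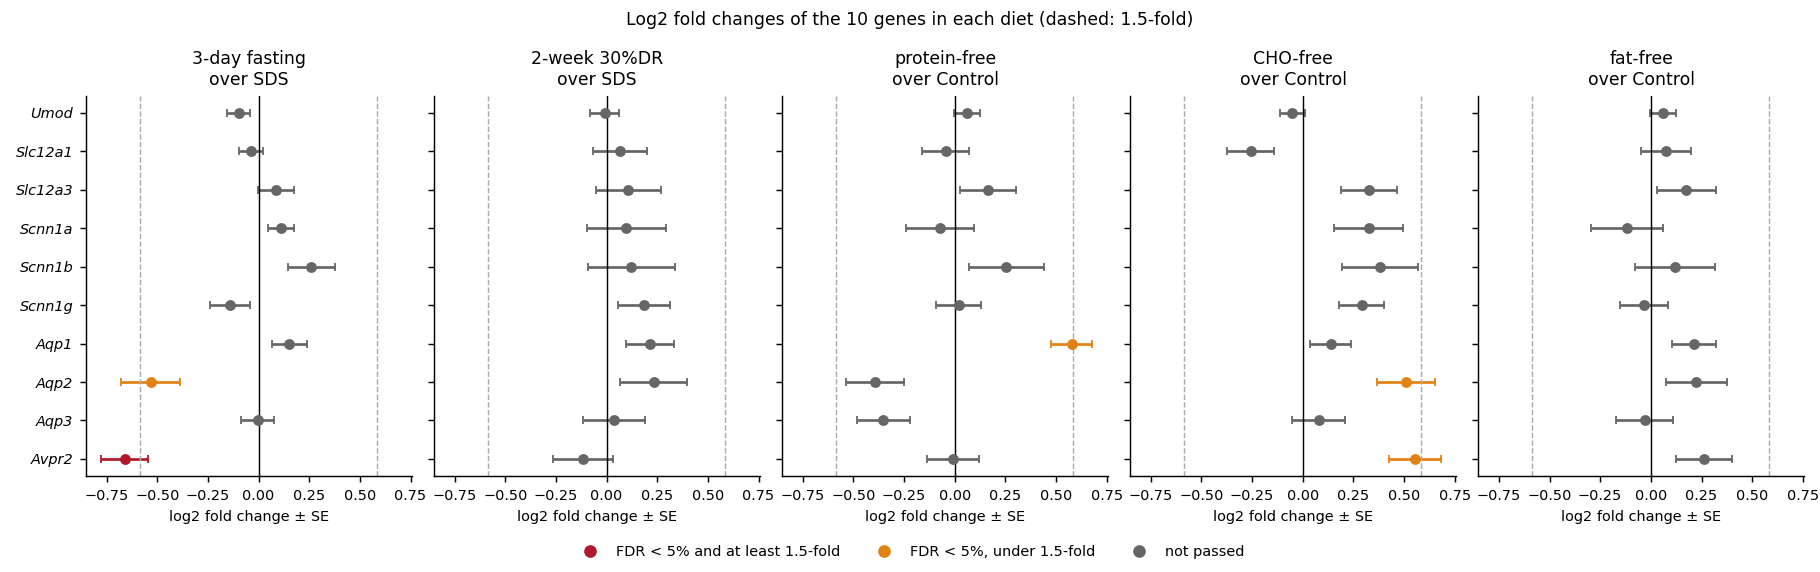
Log2 fold change of each gene (points, whiskers: SE) in each diet over its own control, with dashed lines at 1.5-fold. Avpr2 after fasting (-0.66) passed both thresholds, Aqp2 after fasting (-0.53), Aqp1 on the protein-free diet (0.58) and Aqp2 and Avpr2 on the CHO-free diet (0.51 and 0.56) passed the FDR alone, and the fat-free and 30%DR panels hold no gene past the FDR.

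Around these genes, the other transporters moved unevenly after fasting. By the FDR, 6 of the 8 other genes measured from the thick ascending limb were lower and 0 higher, where 9.54% of all probe sets were lower and 10.1% higher, with a median log2 fold change of -0.30 where that of all probe sets was 0.00. Ptger3, the prostaglandin E2 receptor that restrains salt uptake there, was a DEPS, with 8.44 ± 0.24 (SD, n = 4) in fasted and 9.19 ± 0.11 (SD, n = 5) in SDS mice (-0.75, SE 0.11, adjusted p = 0.000491). Kcnj1, the potassium channel ROMK that recycles potassium for NKCC2, had -0.45 (adjusted p = 0.00336), Bsnd, the chloride channel subunit barttin, -0.45, and the claudin genes Cldn16, Cldn19 and Cldn10 had -0.26, -0.34 and -0.26, all under 1.5-fold by these probe sets, and Cldn19 at 2.80 to 4.12 over all arrays was within the range of nonspecific probe sets. Bsnd ran from 4.07 to 6.14 over all arrays and so lay partly within that range. Dimmer probe sets of Kcnj1 (-0.63) and of Fxyd2, a sodium pump subunit (0.95), were DEPS, and the brightest Fxyd2 probe set had -0.23.

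Pvalb, the calcium-binding parvalbumin of the distal convoluted tubule, fell to 6.83 ± 0.14 (SD, n = 4) in fasted mice, against 7.84 ± 0.21 (SD, n = 5) in SDS mice (-1.01, SE 0.11, adjusted p = 7.68e-05), the single DEPS among 10 other genes of that segment. In the proximal tubule, 1 of 10 sodium transport genes rose and 1 fell (2.63% and 2.68% of all probe sets). By the FDR alone 1 was higher and 4 were lower (10.1% and 9.54% of all). Slc5a2, the glucose cotransporter SGLT2, fell to 8.39 ± 0.25 (SD, n = 4) in fasted mice, against 9.27 ± 0.23 (SD, n = 5) in SDS mice (-0.89, SE 0.14, adjusted p = 0.00082). Slc13a3, a sodium-coupled dicarboxylate transporter, rose by 0.76 (SE 0.11, adjusted p = 0.00064), and Slc9a3, the sodium-proton exchanger NHE3, had -0.34 (adjusted p = 0.00391).

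Sgk1, the kinase through which aldosterone acts on ENaC and which glucocorticoids also raise, was the single DEPS among 10 other genes of the aldosterone pathway. After fasting 5.31% of all probe sets were DEPS. Sgk1 had 10.16 ± 0.46 (SD, n = 4) in fasted and 9.55 ± 0.15 (SD, n = 5) in SDS mice (0.61, SE 0.18, adjusted p = 0.0302), a call that held in 3 of 9 fits with 1 mouse left out (0.42 to 0.75). Among 12 other genes of the vasopressin pathway, Avpr1a, the V1a receptor, fell by 0.89 (SE 0.13, adjusted p = 0.000674), with group means of 4.11 and 5.00 that lie near the nonspecific probe sets. Adcy6, the adenylyl cyclase that makes cAMP downstream of the V2 receptor, was higher by the FDR (0.43, adjusted p = 0.00158). Nfat5, the osmotic stress factor, had 0.52 (adjusted p = 0.000755) and Slc6a6, the taurine transporter, 0.39 (adjusted p = 0.0107). The mean of 7 leukocyte markers was 5.14 ± 0.10 (SD, n = 4) in fasted and 5.61 ± 0.14 (SD, n = 5) in SDS mice, with 3 of them DEPS (Ptprc -0.78, C1qa -0.67 and C1qb -0.92), 1 of 7 proximal tubule markers rose (Slc22a8, 0.77) and 1 fell (Slc5a2), Wt1 of podocytes had 0.66 with both group means (4.77 in fasted and 4.11 in SDS mice) within the range of nonspecific probe sets, and their part in these values was not tested.

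After 2-week 30%DR none of the 14 probe sets was a DEPS (0 of 14, where 0.919% of all were), 0 passed the FDR (1.49% of all), 1 had an unadjusted p under 0.05 (12.4% of all), and 0 were without overlap (8.42% of all). The 1 with such a p was the second probe set of Slc12a3, which was at background (3.08 in 30%DR and 3.34 in SDS mice). Aqp2 had 8.07, 8.02, 8.35, 8.37 and 8.48 in 30%DR mice, against 8.05, 7.93 and 8.11 in SDS mice, and 3 of 5 restricted mice lay above all controls (0.23, SE 0.17, 95% interval -0.11 to 0.57, adjusted p = 0.647). Avpr2 had 6.31, 6.58, 6.09, 6.35 and 6.14, against 6.41, 6.27 and 6.54 in SDS mice (-0.12, SE 0.15). The 10 changes lay between -0.12 and 0.23, and with 3 controls the intervals of Aqp2, Scnn1b (-0.32 to 0.56) and Scnn1a (-0.30 to 0.50) come close to 1.5-fold.

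The other genes of sodium and water handling that were DEPS after 30%DR numbered 3, where 0.919% of all probe sets were. They were 1 of 10 genes of the proximal tubule, 1 of 10 other genes of the distal convoluted tubule and 1 of 12 other genes of the vasopressin pathway. Slc6a19, the sodium-coupled neutral amino acid transporter of the proximal tubule, rose to 10.70 ± 0.32 (SD, n = 5) in 30%DR mice, against 9.66 ± 0.16 (SD, n = 3) in SDS mice (1.04, SE 0.21, adjusted p = 0.00737). Pvalb fell by 0.83 (SE 0.19, adjusted p = 0.0256) and Avpr1a by 0.63 (SE 0.15, adjusted p = 0.0236), and these calls held in 3 and 4 of 8 fits with 1 mouse left out. Dimmer probe sets of Avpr1a (-1.09), Prkar2b (-1.25) and Hspa4l, a gene induced by osmotic stress (-0.84), were DEPS as well. By their brightest probe sets Prkar2b and Hspa4l were no DEPS. Even the brightest probe sets of Avpr1a and Prkar2b averaged 4.20 and 3.84 over all arrays, within the range of nonspecific probe sets.

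On the protein-free diet Aqp1 was higher by the FDR, Aqp2 and Aqp3 had lower means that did not pass the test, and Avpr2 was level with the Control diet. Aqp1, the constitutive water channel of the proximal tubule and thin descending limb, had 11.89, 12.10, 12.13, 11.82 and 11.82 in protein-free mice, against 11.57, 11.54, 11.50, 11.27 and 11.01 in Control mice. All 5 protein-free mice lay above all 5 controls. The log2 fold change was 0.58 (SE 0.10, 95% interval 0.37 to 0.78, adjusted p = 0.00195), which is 1.49-fold, just under the threshold of a DEPS. Of the 14 probe sets 0 were DEPS (0.738% of all), 1 passed the FDR (1.69% of all), 5 had an unadjusted p under 0.05 (12.9% of all) and 2 were without overlap (3.46% of all). Without Control mouse 5, the lowest, Aqp1 had 0.48 (adjusted p = 0.00635). The other 3 measured markers of the thin descending limb had a median of -0.30, and 0 of them passed the test.

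Aqp2 had 7.26, 7.81, 7.77, 7.62 and 7.41 in protein-free mice, against 8.26, 7.81, 7.98, 7.85 and 7.94 in Control mice. The groups did not overlap, but the highest protein-free and the lowest Control value agree to 2 decimals, and the log2 fold change of -0.39 (SE 0.14, 95% interval -0.69 to -0.10) did not pass the test (adjusted p = 0.195). Aqp3, the basolateral water channel, had 7.14, 7.89, 7.78, 7.78 and 8.11, against 8.07, 7.99, 8.16, 8.04 and 8.20 in Control mice (-0.35, SE 0.13, adjusted p = 0.212). Its other probe sets had -0.67 (adjusted p = 0.149) and -0.58 (adjusted p = 0.248). Protein-free mouse 1 was the lowest, with a Gapdh difference of 2.19 where Control mice had at most 0.96. Without it the leading probe set had -0.20, and with the Gapdh difference as a covariate -0.16 (adjusted p = 0.596). Avpr2 differed by -0.01 (SE 0.13, 95% interval -0.27 to 0.26) on the protein-free diet.

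Aqp4, the other basolateral water channel of principal cells, had 8.81 ± 0.26 (SD, n = 5) in protein-free mice. Control mice had 7.73 ± 0.44 (SD, n = 5). The difference (1.08, SE 0.22, adjusted p = 0.00776) was a DEPS in 10 of 10 fits with 1 mouse left out. Over all arrays of both experiments Aqp4 averaged 8.65, near the protein-free mean and above the Control mean. The 4 principal cell markers outside the 10 genes had a median of -0.62 for Control over SDS, with 0 past the FDR. A rise on the protein-free diet thus cannot be told apart from a low level in the Control mice. Pde4d, a phosphodiesterase that breaks down cAMP, rose by 0.63 (SE 0.11, adjusted p = 0.00222). Aqp4 and Pde4d were the 2 DEPS among 12 other genes of the vasopressin pathway, where 0.738% of all probe sets were. Of the magnesium channel Trpm6 and of Slc5a2 the changes were 0.55 (adjusted p = 0.0343) and -0.54 (adjusted p = 0.033), under 1.5-fold. Foxi1, a transcription factor of intercalated cells, fell by 0.60 (SE 0.16, adjusted p = 0.0482), a call that held in 2 of 10 such fits. Dimmer probe sets of Slc13a1 (1.07) and Slc6a6 (0.67) were DEPS, while their brightest ones did not pass (0.41 and 0.56).

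On the CHO-free diet the vasopressin receptor and its water channel had higher signals, in the reverse direction of fasting. Avpr2 had 6.74, 6.88, 7.07, 7.18 and 6.79 in CHO-free mice, against 6.66, 6.46, 6.41, 6.12 and 6.22 in Control mice. All 5 CHO-free mice lay above all controls, by 0.56 on average (log2, SE 0.13, 95% interval 0.29 to 0.82, adjusted p = 0.00665), or 1.47-fold. Aqp2 had 8.16, 8.34, 8.89, 8.59 and 8.41 in CHO-free mice, and of these 4 exceeded the highest Control mouse (0.51, SE 0.14, 95% interval 0.21 to 0.80, adjusted p = 0.0225), or 1.42-fold. Neither reached 1.5-fold, so 0 of the 14 probe sets were DEPS (3.6% of all, 1.35% higher and 2.25% lower), 2 passed the FDR (10.4% of all, 5.51% higher and 4.85% lower), 5 had an unadjusted p under 0.05 (24.4% of all) and 2 were without overlap (5.39% of all). Without CHO-free mouse 3 or 4, or Control mouse 2 or 4, Aqp2 no longer passed the FDR (adjusted p from 0.057 to 0.0937), while Avpr2 passed it in each of the 10 fits with 1 mouse left out.

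Some markers of cell types also differed between CHO-free and Control mice. The mean of the 9 principal cell markers was 7.80 ± 0.16 (SD, n = 5) in CHO-free mice, from 7.58 to 7.99, and 7.34 ± 0.19 (SD, n = 5) in Control mice, from 7.20 to 7.68. By the FDR 4 of the 9 were higher, where 5.51% of all probe sets were. The 4 that are not among the 10 genes had a median log2 fold change of 0.54, where that of all probe sets was 0.03. Of these 4, 2 passed the FDR, and 0 did with the Gapdh covariate or without CHO-free mice 3 and 4. The same 4 had a median of 0.56 on the fat-free diet, with 0 past the FDR, and of -0.62 for Control over SDS. The mean of all 9 was also higher after 30%DR, with 7.83 ± 0.05 (SD, n = 5) against 7.61 ± 0.12 (SD, n = 3) in SDS mice. Intercalated cell markers averaged 8.55 ± 0.07 (SD, n = 5) in CHO-free and 8.24 ± 0.24 (SD, n = 5) in Control mice. Of these 6 markers 2 were DEPS, Slc4a1 and Aqp6, where 3.6% of all probe sets were. The median log2 fold change of the 6 was 0.04, near that of all probe sets. Leukocyte markers averaged 5.06 ± 0.07 (SD, n = 5) in CHO-free and 5.42 ± 0.15 (SD, n = 5) in Control mice, with C1qa (-0.74) and C1qb (-1.06) DEPS. Neither passed the FDR with the Gapdh covariate (adjusted p = 0.382 and 0.245), and the part of these cells in the values of Aqp2 and Avpr2 was not tested.

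CHO-free mice 3 and 4, which had the highest Aqp2 and Avpr2 values, also had the highest Gapdh difference, 2.45 each. The group had 1.85 ± 0.62 (SD, n = 5), against 0.82 ± 0.14 (SD, n = 5) in Control mice. With the Gapdh difference as a covariate Avpr2 had 0.38 (SE 0.15, adjusted p = 0.299) and Aqp2 0.50 (SE 0.18, adjusted p = 0.227). Within groups, r with the Gapdh difference was -0.006 for Aqp2 (permutation p = 0.976) and 0.33 for Avpr2 (permutation p = 0.0761, adjusted p = 0.127). Without mice 3 and 4 they had 0.43 (adjusted p = 0.136) and 0.34 (adjusted p = 0.306).

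The sodium transporters did not pass the test on the CHO-free diet. Slc12a1 had 11.59, 11.98, 11.25, 11.66 and 12.03 in CHO-free mice, against 11.93, 11.88, 11.86, 12.09 and 12.04 in Control mice (-0.26, SE 0.12, adjusted p = 0.163), a change of -0.04 with the Gapdh covariate. The 3 ENaC subunits had higher means, Scnn1g by 0.29 (SE 0.11, adjusted p = 0.0948, no overlap), Scnn1b by 0.38 (SE 0.19, adjusted p = 0.206) and Scnn1a by 0.32 (SE 0.17, adjusted p = 0.241). Without Control mouse 5, Scnn1g had 0.17 (adjusted p = 0.316). Slc12a3 had 0.33 (SE 0.14, adjusted p = 0.139), and with the covariate Scnn1g had 0.10, Scnn1b 0.12, Scnn1a 0.14 and Slc12a3 0.14. Umod (-0.05, SE 0.06), Aqp1 (0.14, SE 0.10) and Aqp3 (0.08, SE 0.13) differed by less. Aqp3 had 0.45 with the covariate (adjusted p = 0.0374), and its values followed the Gapdh difference within groups (r = -0.74).

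**Figure D3:**
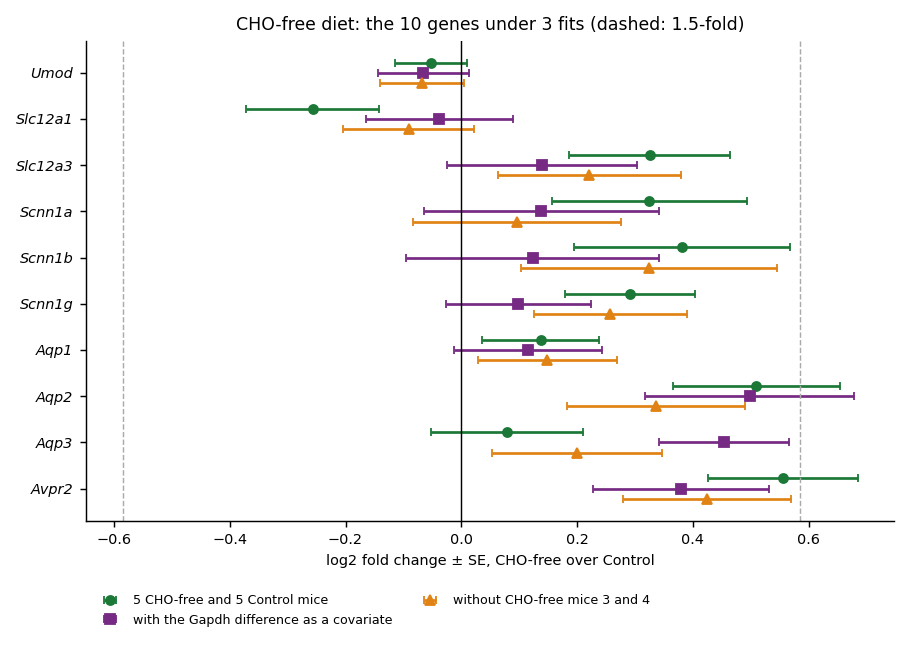
Log2 fold change (points, whiskers: SE) of the 10 genes on the CHO-free diet over Control in 3 fits: with all mice, with the Gapdh 3' minus 5' difference as a covariate, and without CHO-free mice 3 and 4; dashed lines mark 1.5-fold. Avpr2 had 0.56, 0.38 and 0.43 in these fits and Slc12a1 -0.26, -0.04 and -0.09, while Aqp3 had 0.08, 0.45 and 0.20.

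Other genes of sodium and water handling were DEPS on the CHO-free diet as well. In the collecting duct, Aqp6, the channel of intercalated cells, rose to 9.15 ± 0.29 (SD, n = 5) in CHO-free mice, against 8.22 ± 0.42 (SD, n = 5) in Control mice (0.93, SE 0.18, adjusted p = 0.00137). Slc4a1, the basolateral bicarbonate exchanger of the same cells, rose by 1.09 (SE 0.10, adjusted p = 7.87e-08), and Elf5, a transcription factor of principal cells, by 1.23 (SE 0.34, adjusted p = 0.0204). Slc5a3, the inositol transporter that cells use against osmotic stress, had 4.64 ± 0.57 (SD, n = 5) in CHO-free and 3.43 ± 0.23 (SD, n = 5) in Control mice (adjusted p = 0.000738), and both means lie within the range of nonspecific probe sets, as does the Control mean of Elf5 (4.26). Fxyd4, a sodium pump subunit of principal cells, had 0.58 (SE 0.13, adjusted p = 0.00573) and was just under 1.5-fold.

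Upstream, 2 of 8 other thick ascending limb genes were lower as DEPS, where 2.25% of all probe sets were. They were Cldn10, the sodium-permeable claudin, with 9.66 ± 0.71 (SD, n = 5) in CHO-free and 10.79 ± 0.27 (SD, n = 5) in Control mice (-1.13, SE 0.28, adjusted p = 0.0102), and Cldn16, the claudin of magnesium uptake (-0.62, SE 0.15, adjusted p = 0.0079). Pvalb fell by 0.73 (SE 0.17, adjusted p = 0.00637), Slc13a1, the sodium-sulfate cotransporter, by 0.65 (SE 0.11, adjusted p = 0.000603) and Nr3c1, the glucocorticoid receptor, by 0.62 (SE 0.14, adjusted p = 0.00643), and Slc13a3 rose by 0.64 (SE 0.16, adjusted p = 0.0114). With the Gapdh covariate Slc4a1 stayed a DEPS (0.996, adjusted p = 1.91e-05) and the other 9 did not, with Cldn10 at -0.15 (adjusted p = 0.795), Slc13a1 at -0.53 (adjusted p = 0.0519), Aqp6 at 0.76 (adjusted p = 0.0862), Slc5a3 at 0.85 (adjusted p = 0.0931) and Elf5 at 1.41 (adjusted p = 0.113). Without CHO-free mice 3 and 4, Slc4a1 (1.03), Slc13a1 (-0.57, adjusted p = 0.00712), Aqp6 (0.75, adjusted p = 0.041) and Slc5a3 (0.80, adjusted p = 0.0296) passed the FDR, and the other 6 did not. By dimmer probe sets, Cul3, a ubiquitin ligase subunit that acts on the kinases upstream of NCC, was a DEPS in 3 (-1.17, -1.08 and -0.64, against -0.21 for the brightest), and Kcnj16 (-0.76, against -0.01 for the brightest), Fxyd2 (0.70, against 0.02), Slc4a4 (0.67) and Slc5a12 (-0.71) were DEPS in 1 each.

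No gene of the 10 passed a test on the fat-free diet, with 0 DEPS of 14 (0% of all) 0 with an unadjusted p under 0.05 (4.63% of all) and 0 without overlap (1.61% of all). Aqp2 had 7.94, 8.15, 8.72 and 7.97 in fat-free mice, 3 of them within the range of the Control mice (0.22, SE 0.15), and Avpr2 had 6.72, 6.47, 6.96 and 6.40 (0.26, SE 0.14, 95% interval -0.02 to 0.54, adjusted p = 0.998). The Control diet set against SDS chow likewise gave 0 DEPS of 14 (0.0465% of all), 0 past the FDR (0.0554% of all), 1 with an unadjusted p under 0.05 (6.34% of all) and 0 without overlap (4.72% of all), with changes from -0.18 to 0.18 by the brightest probe sets. The 1 was again the second probe set of Slc12a3, at background. Prkar2b, a regulatory subunit of protein kinase A, fell by 1.65 (SE 0.29, adjusted p = 0.0265) to 3.12 ± 0.14 (SD, n = 5) on Control, against 4.78 ± 0.47 (SD, n = 3) on SDS, in the range of nonspecific probe sets. Its call held in 3 of 8 fits with 1 mouse left out, and Fabp4, a marker of adipocytes, fell by 1.15 in the same comparison.

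**Figure D4:**
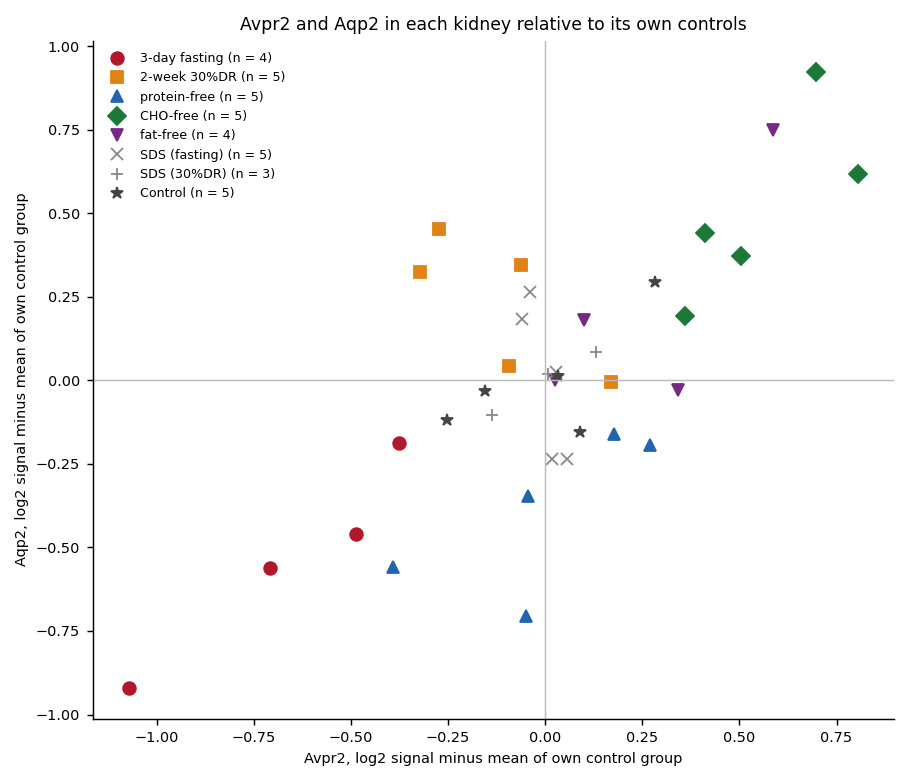
Avpr2 (horizontal) and Aqp2 (vertical) in each kidney, as log2 signal minus the mean of the mouse's own control group, with 1 symbol per mouse and group. The 4 fasted mice lie at the lower left and the 5 CHO-free mice at the upper right, while the 5 protein-free mice lie below 0 for Aqp2 and spread around 0 for Avpr2.

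The differences between diets were tested directly. Aqp2 was the single DEPS of the 14 between the CHO-free and the protein-free diet (2.44% of all), with 8.48 ± 0.28 (SD, n = 5) in CHO-free and 7.58 ± 0.23 (SD, n = 5) in protein-free mice (0.90, SE 0.14, 95% interval 0.61 to 1.20, adjusted p = 0.000187), or 1.87-fold. CHO-free mice ranged from 8.16 to 8.89 and protein-free mice from 7.26 to 7.81, and the share of all probe sets without overlap was not counted here. The call for Aqp2 held with the Gapdh covariate (0.90, adjusted p = 0.000516) and without CHO-free mice 3 and 4 (0.73, adjusted p = 0.00622). Of the 14 probe sets 4 passed the FDR in this comparison (7.23% of all) and 8 had an unadjusted p under 0.05 (20.4% of all). Besides Aqp2 they were Avpr2 (0.56, SE 0.13, adjusted p = 0.00675), Aqp3 (0.43, SE 0.13, adjusted p = 0.0447) and, in the other direction, Aqp1 (-0.44, SE 0.10, adjusted p = 0.00684). Avpr2 missed the FDR without CHO-free mice 3 and 4 (0.43, adjusted p = 0.114). Aqp3 passed it under 6 of 9 alternatives, with an adjusted p of up to 0.0621, and in 3 of 10 fits with 1 mouse left out, with 0.28 (adjusted p = 0.138) without protein-free mouse 1. Aqp1 passed it under all 9.

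The effect of fasting and that of the CHO-free diet, each over its own controls, differed for 2 of the 14 probe sets (2.84% of all, and 3.94% by the FDR alone, where it was the same 2). For Avpr2 the difference was -1.22 (SE 0.19, 95% interval -1.60 to -0.84, adjusted p = 8.18e-05) and for Aqp2 -1.04 (SE 0.22, 95% interval -1.48 to -0.60, adjusted p = 0.00317). With the Gapdh covariate they were -1.05 (adjusted p = 0.00165) and -1.05 (adjusted p = 0.0125), and without CHO-free mice 3 and 4 -1.09 (adjusted p = 0.00113) and -0.87 (adjusted p = 0.0251). Fasting also differed from the protein-free diet in its effect on Avpr2 (1 of 14, 2.33% of all), by -0.65 (SE 0.19, 95% interval -1.03 to -0.27, adjusted p = 0.0475), a call that was lost with the Gapdh covariate (-0.57, adjusted p = 0.0818) and in 15 of 19 fits with 1 mouse left out, among them the one without fasted mouse 3 (-0.52, adjusted p = 0.157). For Aqp2 the effects of these diets differed by -0.14 (95% interval -0.58 to 0.30). Fasting and 30%DR (0 DEPS of 14, 2.24% of all, and 2 at an unadjusted p under 0.05, 11.9%) differed by -0.76 in their effect on Aqp2 (SE 0.23, adjusted p = 0.0752). The CHO-free and fat-free diets (1.25% of all, 2.81% by the FDR alone), the protein-free and fat-free diets (0.241% of all) and the 30%DR and CHO-free effects (0.62% of all) gave 0 DEPS of 14, and at an unadjusted p under 0.05 they gave 4 (16.8% of all), 3 (8.06%) and 2 (11.6%), with the largest difference for Aqp2 between protein-free and fat-free mice (-0.62, SE 0.15, adjusted p = 0.0771) and for Avpr2 between 30%DR and CHO-free (-0.67, SE 0.20, adjusted p = 0.128).

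By level, the 6 groups hybridized together ranked for Aqp2 as CHO-free 8.48, 30%DR 8.26, fat-free 8.19, SDS 8.03, Control 7.97 and protein-free 7.58. Neighbours in this order were apart by less than the larger of their SDs, except protein-free, which lay 0.39 below Control. For Avpr2 CHO-free (6.93) stood above fat-free (6.64), SDS (6.41), Control (6.37), protein-free (6.37) and 30%DR (6.29), and the gap of 0.29 between CHO-free and fat-free alone exceeded the larger SD of the neighbours. For Aqp1 protein-free (11.95) came before 30%DR (11.76), fat-free (11.59), SDS (11.55), CHO-free (11.51) and Control (11.38), and protein-free and 30%DR alone were apart by more than the larger SD.

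**Figure D5:**
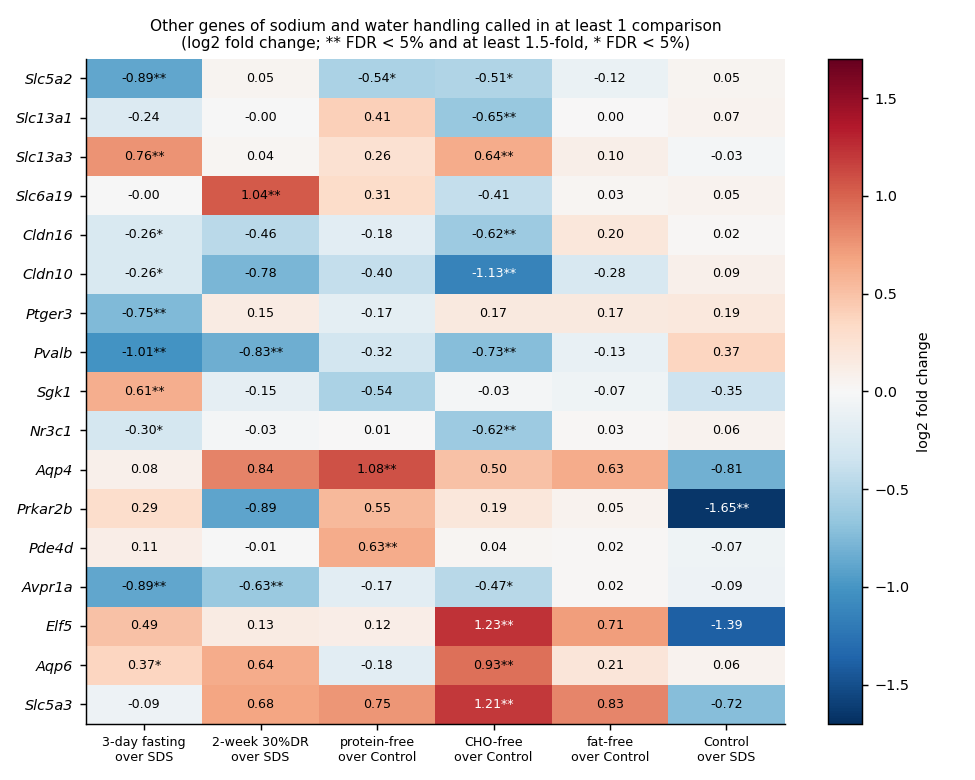
Log2 fold change (number and colour, red higher and blue lower) of the 17 other genes of sodium and water handling that were DEPS in at least 1 comparison, for the 5 diets over their controls and Control over SDS; 2 asterisks mark a DEPS and 1 asterisk an FDR under 5% alone. Pvalb fell by 1.01, 0.83 and 0.73 in the fasting, 30%DR and CHO-free columns, and the fat-free column holds no asterisk.

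Within groups, some of the genes varied together from mouse to mouse. Over deviations from the group means of the 36 arrays, 45 pairs were compared, with permutations of mice within groups. Of these, 19 passed the adjusted p by Pearson's r and 12 by Spearman's rho, so the pairs given are examples. Slc12a3 and Scnn1b, of neighbouring segments of the distal nephron, had r = 0.80 (rho = 0.80, permutation p = 1e-05 for both, the smallest that 100000 permutations can give, adjusted p = 0.00045), 0.76 without the 2 mice farthest from the median of Slc12a3, 0.76 within the 9 mice of the fasting experiment and 0.81 within the other 27. Aqp2 and Avpr2, of the same cells, had r = 0.54 (permutation p = 0.00536, adjusted p = 0.0281) and rho = 0.45 (permutation p = 0.018, adjusted p = 0.0517), 0.46 without the 2 farthest mice, and 0.62 and 0.51 within the 2 experiments. Avpr2 was also correlated with Scnn1a (r = 0.49, permutation p = 0.00662, rho = 0.60) and Scnn1g (r = 0.49, permutation p = 0.00749, rho = 0.52), at the same adjusted p for r. Slc12a1 and Scnn1a ran against each other (r = -0.61, permutation p = 0.00207, adjusted p = 0.0159, rho = -0.57, permutation p = 0.00342, adjusted p = 0.022), with -0.59 without the 2 farthest mice, -0.23 within the 9 and -0.62 within the 27. With the Gapdh difference, 1 of 10 genes was correlated past adjustment, Aqp3 (r = -0.74, permutation p = 6e-05, adjusted p = 0.0006, rho = -0.72, permutation p = 3e-05, adjusted p = 0.0003), with -0.65 without the 2 farthest mice, -0.16 within the 9 and -0.79 within the 27. Slc12a1 had r = -0.53 with it (permutation p = 0.026, adjusted p = 0.0651, rho = -0.42, permutation p = 0.0494, adjusted p = 0.0913).

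The spread within groups differed between genes, and the SD was smallest for Umod (0.07) and largest for Scnn1b (0.29). Among 17096 other genes, those whose deviations most resembled Aqp2 were Igfbp2 (r = 0.77), Shb (0.74), Zfpm1 (0.74), Veph1 (0.72) and Cryab (0.72). For Umod they were Atg4c (0.74), Atp1b1, the beta subunit of the sodium pump (0.66), Cnn3 (0.65), Fth1 (0.61) and Chchd2 (0.59), and for Slc12a3 Tspan33 (0.82), Xab2 (0.82), Evc (0.81), Ripor1 (0.81) and Fah (0.81). These are descriptions over the same 36 arrays, which share the integrity and hybridization of each RNA, and they are the highest of many values.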

How the data were processed

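The deposited values are log2 signals from RMA, which the authors ran separately on the fasting experiment and on the other arrays because of different hybridization dates. For RMA no version is given in the sources used here. The authors had left out outlier arrays of the fasting, SDS (30%DR) and fat-free groups. The values range from 2.00 to 13.9 over 45141 probe sets (28898 with 1 gene symbol, 551 with several, 15692 with none) and were not normalized further. Precision is limited by the number of arrays.

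Diets were set against their own controls by limma 3.58.1 in R 4.3.3, on 9 arrays for fasting and 27 for the others, with Benjamini-Hochberg adjustment over all probe sets, and effects of fasting were set against other effects in a fit of 36 arrays. The pipeline was tested on simulated data. Correlations, promoter searches and figures used Python 3.11.15, numpy 2.4.6, pandas 2.3.3 and matplotlib 3.10.9. The 10 genes and the gene lists (textbook knowledge, 1 brightest probe set per gene) were chosen with earlier results of these data known. Named were all 10 genes, every listed gene with a DEPS in its brightest probe set, those past the FDR alone or by a dimmer probe set as examples, and the 5 genes most like Aqp2, Umod and Slc12a3. Mice are numbered in accession order. Alternatives are listed in the closing section, and those for differences between diets, for the listed genes, and the fit without CHO-free mice 3 and 4 were chosen after seeing the data.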

Additional observations from a re-analysis of the deposited data

Results flagged for a closer look

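Several single values stood apart in their group by Dixon's criterion, 5 of 70 groups of 4 to 10 mice checked, and chance gives about 1 in 20. Umod was lowest in 2-week 30%DR mouse 1 (12.75, the next 12.87) and Scnn1a in fat-free mouse 4 (5.20, the next 5.67). Control mouse 5 was lowest for both Slc12a3 (10.30, the next 10.83) and Scnn1g (7.09, the next 7.57), and it was also the lowest Control mouse for Scnn1a (5.32), Scnn1b (4.91) and Aqp1 (11.01). Aqp1 was highest in fasted mouse 4 (11.78, the next 11.48).

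Diets differed from each other in Aqp2, which was 0.90 higher on the CHO-free than on the protein-free diet, and in the effects of fasting minus those of the CHO-free diet on Aqp2 (-1.04) and Avpr2 (-1.22). The effect of fasting on Avpr2 minus that of the protein-free diet was -0.65.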

How the results depend on the processing

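No paired analysis was possible because the labels number no mice across groups. Alternatives were array weights, a prior that is trended and robust, the array median taken off or quantile normalization, brighter probe sets alone (above the median), the FDR without a fold change minimum, the 2 groups alone, the mean over a gene's probe sets, Control joined to SDS, a covariate (the Gapdh difference or adipocyte markers), and fits without single mice. No change in sign of a called value occurred among the members under those run. With no fold change minimum the count of passing member probe sets was 2 after fasting, 1 on the protein-free diet, 2 on the CHO-free diet and 4 between CHO-free and protein-free. With quantile normalization Aqp1 made it 1 on the protein-free diet. With the Gapdh covariate it was 4 between CHO-free and protein-free (Aqp2 and the 3 Aqp3 probe sets). The call for Avpr2 between fasting and protein-free was lost (count 0) with the prior, the Gapdh covariate and the adipocyte covariate. With array weights 1 member passed between protein-free and fat-free and 1 between fasting and 30%DR, the second also with probe sets above the median. Leaving out 1 mouse gave counts of 0 to 2 for fasting and for CHO-free, 0 to 1 for protein-free and for fasting against 30%DR or protein-free, 1 to 2 for CHO-free against protein-free, 2 to 2 for fasting against CHO-free and 0 to 0 in the other comparisons. Of the values for single genes, 1302 kept their side of the threshold under an alternative, 12 came to pass it and 32 no longer passed. The cause of these changes was not tested.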
